A study of Mus musculus with 13 samples.

Results

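The collagen genes of mouse back skin were followed through 2 days and nights. They were taken as every gene whose probe carries a single annotated symbol made of Col, a type number, the letter a and a chain number, and of several probes of a gene the brightest on average stood for it. This gave 44 genes, from 46 probes, among 16322 genes tested and 35557 probes in all. Of the chains listed, Col21a1 was not measured here. All skin came from male C57Bl6 mice at postnatal day 30, kept on a cycle of 12 h light and 12 h dark, and their hair follicles were growing (anagen). Collections began at ZT2 and ended at ZT50, at steps of 4 h, with ZT0 as lights on, and for each of them RNA of 3 mice was pooled and put on 1 array, which gave 13 pools, 7 in the light and 6 in the dark. The title names Bmal1 and UVB, but the pools share 1 strain and age, so the comparisons here are those of time. The time of day 2 h has 3 pools and each of the other 5 has 2 pools.

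Collagens are proteins of the extracellular matrix built from chains that wind into a triple helix. Fibrillar collagens, above all types I and III in the dermis, form the fibres that give skin its strength, and type V sets the width of those fibres. Type IV forms the network of the basement membrane under the epidermis and around vessels, type VII makes the fibrils that anchor that membrane to the dermis, type XVII spans the membrane of basal keratinocytes, and type VI forms beaded filaments around cells and fibres. Fibroblasts make most dermal collagen, and the growing hair follicle is surrounded by a sheath of it.

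Values are intensities as deposited, not on a log scale. All 44 genes passed the brightness filter, which required a mean of log2(intensity + 16) of at least 7.61. Closest above it were Col24a1 at 7.87, Col8a2 and Col10a1 at 8.09 each and Col4a6 at 8.15 on that log2 scale, and below it lay only the second probe of Col6a5, at 7.29. Array medians ran from 440.0 at ZT2 to 483.2 at ZT46, and the lower quartile of each array from 162.8 at ZT34 to 197.8 at ZT46. A pool of 3 mice hides the spread between animals, so every test below measures the spread between pools, and their number limits the precision.

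Some pools stood apart in the markers of other tissues. The mean of 15 skeletal muscle genes varied 2.22-fold and was lowest at ZT2 and highest at ZT30. The mean of 10 hepatocyte genes varied 8.17-fold, with its highest value at ZT46. Of the 10 dermal fibroblast markers 0 had a mean below the highest array median, and their mean varied 1.25-fold, with its highest value at ZT14. Of the 8 cartilage markers all 8 had a mean below it, as had 5 of 5 bone markers measured, and none of these was at 0. In whole skin, fewer cells of a type and less RNA per cell cannot be told apart.

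The windows from 250 bases before to 50 after the annotated start of 35 of the 44 genes are held in RefSeq's promoter table (GRCm38.p6), in 38 windows. Shown here are those of Col1a2 and Col3a1, whose levels moved with Col1a1, of Col4a2, whose start lies close to that of Col4a1 on the other strand, and of Col6a1, which held none of the 4 motifs searched. Capitals mark a CCAAT box (CCAAT), a GC box (GGGCGG) or a TATA box (TATAAA) on either strand, so ATTGG and CCGCCC are matches on the opposite strand. The windows lie at chr6:4505368-4505667 on the plus strand for Col1a2, chr1:45311288-45311587 on the plus strand for Col3a1, chr8:11312555-11312854 on the plus strand for Col4a2 and chr10:76725995-76726294 on the minus strand for Col6a1.
Col1a2: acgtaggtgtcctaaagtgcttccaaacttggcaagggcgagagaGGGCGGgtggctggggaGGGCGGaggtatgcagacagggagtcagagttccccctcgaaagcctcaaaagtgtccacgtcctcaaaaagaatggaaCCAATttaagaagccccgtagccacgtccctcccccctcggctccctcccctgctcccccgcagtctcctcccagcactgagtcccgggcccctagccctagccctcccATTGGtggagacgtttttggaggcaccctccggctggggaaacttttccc
Col3a1: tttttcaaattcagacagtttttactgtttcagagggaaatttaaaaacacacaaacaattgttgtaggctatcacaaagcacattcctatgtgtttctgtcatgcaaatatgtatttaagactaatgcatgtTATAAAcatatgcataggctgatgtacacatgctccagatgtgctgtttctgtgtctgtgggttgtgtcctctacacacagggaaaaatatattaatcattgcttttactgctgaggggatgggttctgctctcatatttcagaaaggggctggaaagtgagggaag
Col4a2: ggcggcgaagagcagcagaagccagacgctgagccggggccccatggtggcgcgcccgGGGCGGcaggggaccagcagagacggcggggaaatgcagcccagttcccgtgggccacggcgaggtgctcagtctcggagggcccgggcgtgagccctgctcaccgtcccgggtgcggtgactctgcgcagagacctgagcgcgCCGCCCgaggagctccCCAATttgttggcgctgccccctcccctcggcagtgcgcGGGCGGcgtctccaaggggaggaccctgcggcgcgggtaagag
Col6a1: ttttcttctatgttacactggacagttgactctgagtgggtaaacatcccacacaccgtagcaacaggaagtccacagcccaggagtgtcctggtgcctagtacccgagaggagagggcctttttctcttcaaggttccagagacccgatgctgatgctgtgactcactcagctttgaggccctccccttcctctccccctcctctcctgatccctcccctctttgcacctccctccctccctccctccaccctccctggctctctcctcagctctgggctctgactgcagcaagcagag

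A GC box stood in 23 of the 38 collagen windows, or 60.5%, against 35.7% of all 32851 windows of the table. CCAAT stood in 34.2% of the collagen windows against 37.4% of all, and TATAAA in 13.2% against 13.6%. The E-box CACGTG, the sequence to which clock activators bind, stood in 0 of the 38 collagen windows and in 7.15% of all windows. Both strands were searched, and none of the 4 motifs contains another. These are matches of letters in a window of 300 bases and say nothing about binding. The annotated starts of Col4a1 and Col4a2 lie 21 bases apart on opposite strands of chromosome 8, so that their windows share 78 bases. Col4a1 starts at 11312826 on the minus strand and Col4a2 at 11312805 on the plus strand, so the annotated transcripts overlap at their starts. The bases shown before the Col4a2 start thus lie downstream of the Col4a1 start. The starts of Col4a6 and Col4a5 lie 1343 bases apart on the X chromosome.

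The first question was how far the collagens moved at all. Of the 11 fibrillar chains, Col1a1 had the smallest standard deviation of log2 values over the pools. Col1a1, the chain present as a pair in each type I molecule, was at 14020 at ZT2, 13839 at ZT6, 14722 at ZT10, 15399 at ZT14, 15345 at ZT18, 14346 at ZT22, 16086 at ZT26, 15288 at ZT30, 14616 at ZT34, 13131 at ZT38, 13627 at ZT42, 14600 at ZT46 and 14248 at ZT50. It was highest at ZT26, in the light of the second day, and lowest at ZT38, in the dark that followed. From lowest to highest this was 1.23-fold. Means by time of day lay between 14265 ± 1604 in the 2 pools of 14 h and 14785 ± 1133 in the 3 pools of 2 h (mean ± SD), closer to each other than were the pools of 14 h, ZT14 and ZT38. Light and dark pools overlapped in Col1a1 and in each of the other collagens, so that 0 of 44 had them apart, where 0.276% of all genes did. Col1a2, the partner chain of type I, ran from 11888 at ZT38 over a median of 13411 to 14524 at ZT18. Col3a1, which forms finer fibres beside type I, ran from 6577 at ZT38 over a median of 7376 to 8662 at ZT26.

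Type V followed the same course. Col5a1 was lowest at ZT38, at 1424, had a median of 1572 and was highest at ZT26, at 1816. Col5a2 was lowest at ZT38 too, at 1110, with a median of 1295 and its highest value at ZT30, at 1545. The third type V chain, Col5a3, ran from 530 at ZT38 over 585 to 685 at ZT26, and had its next highest values at ZT46 and ZT50, at 665 and 658. At ZT50 Col5a2 was near its lowest, at 1113. The mean of Col1a1, Col1a2, Col3a1, Col5a1 and Col5a2, each gene centred on its own mean of log2 values, spanned 0.34 log2 over the pools (1.27-fold) between ZT38 and ZT26. With quantile normalization of the arrays it spanned 1.26-fold between the same pools.

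The main chains of type VI, the filament collagen, were low and high in much the same pools. Col6a1 ran from 2735 at ZT2 over a median of 3180 to 3675 at ZT30. Col6a2 ran from 2846 at ZT38 over 3256 to 3804 at ZT14. Col6a3, the longest chain of the type VI molecule, ran from 2249 at ZT38 over 2632 to 3308 at ZT14. The mean of these 3 chains spanned 1.36-fold, and all of them stood below their own mean at ZT2, ZT6, ZT22, ZT38 and ZT50 and above it at ZT14, ZT18, ZT26, ZT30 and ZT34. The later chains took another course. Col6a4 ran from 457 at ZT2 over 538 to 692 at ZT46, and Col6a5 from 283 at ZT30 over 356 to 484 at ZT46. Col6a6 was lowest at ZT34, at 571, with a median of 673 and its highest value of 824 at ZT50. A second probe of Col6a6 disagreed with the first, since it was highest at ZT34, at 360, and lowest at ZT46, at 284.

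**Figure D1:**
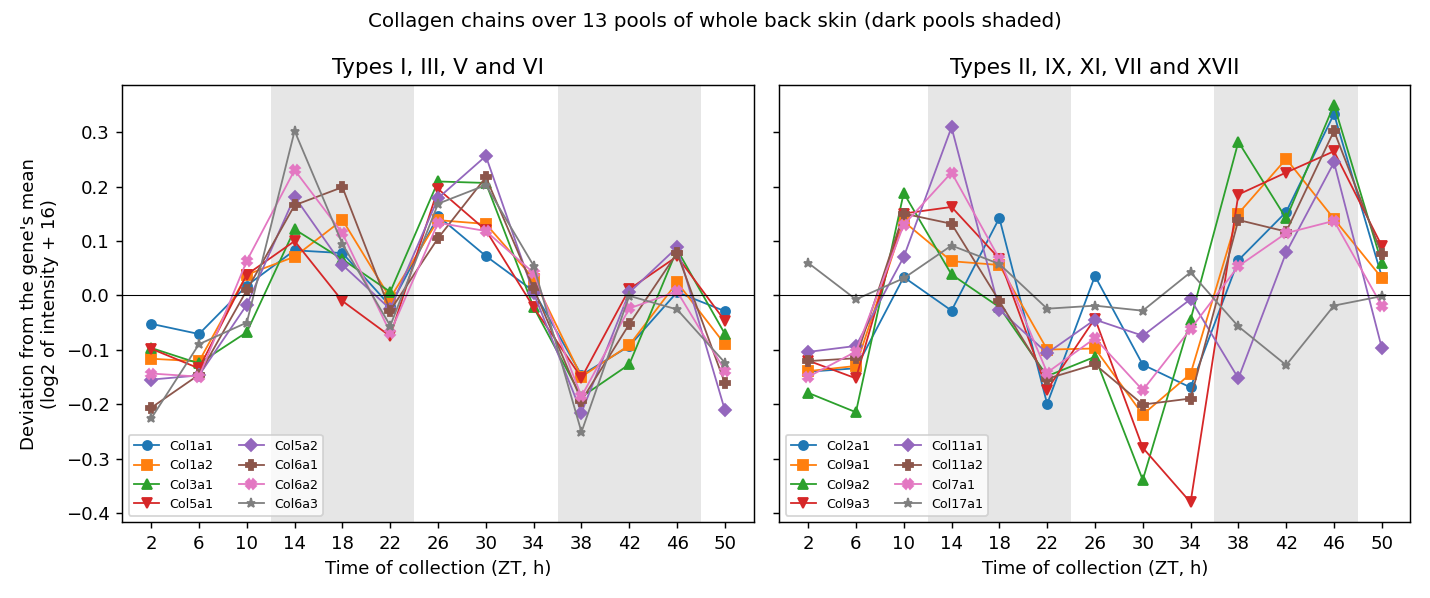
Deviation of 16 collagen chains from their own means, in log2 of intensity + 16, against the time of collection in 13 pools, 1 point per pool, with pools taken in the dark shaded. The chains shown here of types I, III, V and VI were at or near their lowest at ZT38 and above their means at ZT26 and ZT30. Of the 6 chains of types II, IX and XI, 4 were highest at ZT46.

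The collagens of the basement membrane split in the same way. Col4a1 and Col4a2, the pair of chains found in nearly all basement membranes, were both lowest at ZT38. Col4a1 ran from 1444 over 1583 to 1665 at ZT46, and Col4a2 from 1268 over 1479 to 1652 at ZT18. Col4a3 and Col4a4, which join in a network of more specialised membranes, were both lowest at ZT34 and highest at ZT46, at 279 and 362 for Col4a3 and at 296 and 400 for Col4a4, with medians of 330 and 349. Col4a5 ran from 339 at ZT30 over 386 to 435 at ZT14. Col4a6 ran from 234 at ZT22 over 262 to 323 at ZT18. Among the 2 multiplexins, collagens of the basement membrane zone with sugar chains attached, Col15a1 was lowest at ZT38, at 1539, had a median of 1927 and was highest at ZT26, at 2344. Col18a1, the source of endostatin, was lowest at ZT14, at 1404, had a median of 1579 and was highest at ZT2, at 1807.

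At the junction of dermis and epidermis the collagens differed from each other. Col17a1, the collagen of the hemidesmosome, was the steadiest of all 44 genes, with a standard deviation of 0.06 log2 over the 13 pools. It ran from 4150 at ZT42 over 4515 to 4837 at ZT14. Col7a1, the anchoring fibril collagen, ran from 579 at ZT30 over 647 to 770 at ZT14. The fibril-associated chains Col12a1 and Col14a1, which sit on the surface of type I fibres, ran from 2091 at ZT50 over 2444 to 2620 at ZT18 and from 1956 at ZT50 over 2174 to 2639 at ZT14. Each of the 4 had its highest value in the dark of the first day, at ZT14 or ZT18, and each had overlapping values in light and dark pools.

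Over the 44 genes, the standard deviation across pools had a median of 0.132 log2, against 0.111 for all genes tested, and 30 of the 44 lay above that second value. Beside Col17a1, the smallest were those of Col4a1 at 0.061, Col16a1 at 0.073 and Col1a1 at 0.081. The largest were those of Col6a5 at 0.212, Col9a3 at 0.206, Col8a2 at 0.205 and Col9a2 at 0.203. Col8a2, a short-chain network collagen, was at 349 at ZT10 and between 207 at ZT18 and 298 at ZT22 in the other 12 pools. Col9a2 and Col9a3, chains of the collagen that decorates type II fibres, ran from 319 at ZT30 to 525 at ZT46 and from 342 at ZT34 to 545 at ZT46.

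**Figure D2:**
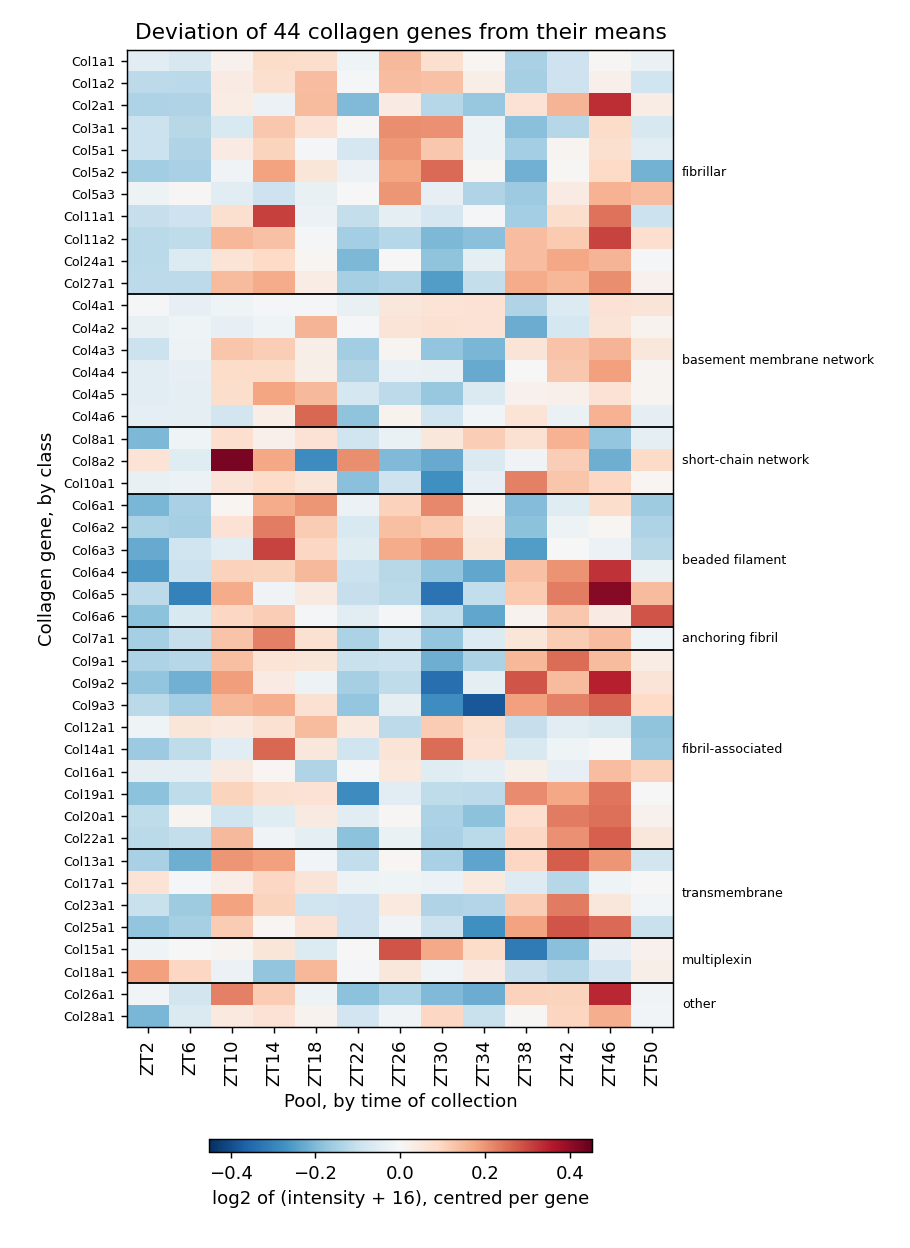
Deviation of each of the 44 collagen genes from its own mean, in log2 of intensity + 16, with 1 row per gene grouped by class and 1 column per pool. Red marks values above and blue values below the gene's mean, and ZT38 was the lowest pool of 12 genes and ZT46 the highest of 16.

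The second question was whether collagen levels followed a 24 h wave. A cosine and a sine term with linear time were fitted over all 13 pools in limma, with Benjamini-Hochberg adjustment over all 16322 genes and calls at an adjusted p under 0.05. Of the 44 collagens 0 were called, where 0.141% of all genes tested were. The smallest adjusted p was 0.449, of Col5a3. At an unadjusted p under 0.05 stood 8 collagens, or 18.2%, against 9.54% of all genes. These were Col5a3, Col8a1, Col6a4, Col7a1, Col9a1, Col27a1, Col4a5 and Col25a1. The count of 8 was 17 without the pool of ZT22, 3 without ZT30 and 5 without ZT14 or ZT38. For all genes the share at that p was not computed with a pool left out.

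The fitted waves were small. Peak-to-trough folds ran from 1.01 in Col1a2 to 1.26 in Col6a4, and the median amplitude was 0.078 log2, against 0.061 over all genes tested. The highest upper 95% bound of any collagen fold was 1.54, of Col9a3. For Col1a1 the fitted fold was 1.02 (amplitude 0.02 ± 0.04 log2, SE, 13 pools), with an upper bound of 1.14, and for Col3a1 it was 1.06 (0.04 ± 0.05), with an upper bound of 1.23. With 13 pools, waves up to these bounds cannot be told from no wave.

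Among the 6 genes with the smallest p, the peaks fell at different hours. Col5a3 had a fold of 1.17 with a peak at 0.5 h after lights on (amplitude 0.11 ± 0.03 log2, SE). Its mean was 642 ± 51.8 at 2 h (SD, n = 3), against 544 ± 19.1 at 14 h (SD, n = 2). The pools of 2 h were at 585 at ZT2, 685 at ZT26 and 658 at ZT50. Col5a3 varied little from ZT2 to ZT22, at 582 ± 14.6 (SD), and more from ZT26 to ZT46, at 602 ± 63.7. Col8a1, a network chain of vessels and cornea, had a fold of 1.17 and a peak at 12.2 h, with an adjusted p of 0.468 in limma. The other 4 had later peaks in the dark. Col7a1 had a fold of 1.19 and a peak at 15.6 h, with a mean of 726 ± 62.5 at 14 h (SD, n = 2), against 594 ± 21.3 at 6 h (SD, n = 2). Col6a4 had a fold of 1.26 at 17.2 h, Col9a1 1.21 at 16.6 h, each with an adjusted p of 0.484 as for Col7a1, and Col27a1, a fibrillar chain of cartilage, 1.21 at 16 h with 0.486.

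The hours of the fitted peaks were uneven. Of the 44 fitted peaks 34 lay in the dark, or 77.3%, against 54.2% of all genes, and 28 lay between 14 and 19 h, or 63.6%, against 32.2%. After quantile normalization 31 lay in the dark (70.5%, against 49.5% of all genes) and 22 between 14 and 19 h (50%, against 26.2%). With array medians set equal 26 lay in the dark (59.1%, against 37.8% of all genes) and 20 between 14 and 19 h (45.5%, against 20.3%). The array median itself was higher in the pools of ZT10, ZT14, ZT38, ZT42 and ZT46, at 467 to 483, than in the other 8, at 440 to 462, and its part in these peak hours was not tested. The chains of types I and III were not among the genes with a wave at an unadjusted p under 0.05. Their fitted peaks fell at 2.4 h in Col1a1, 15.4 h in Col1a2 and 1.5 h in Col3a1. Each of these amplitudes was below its SE, so the hours are not determined.

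**Figure D3:**
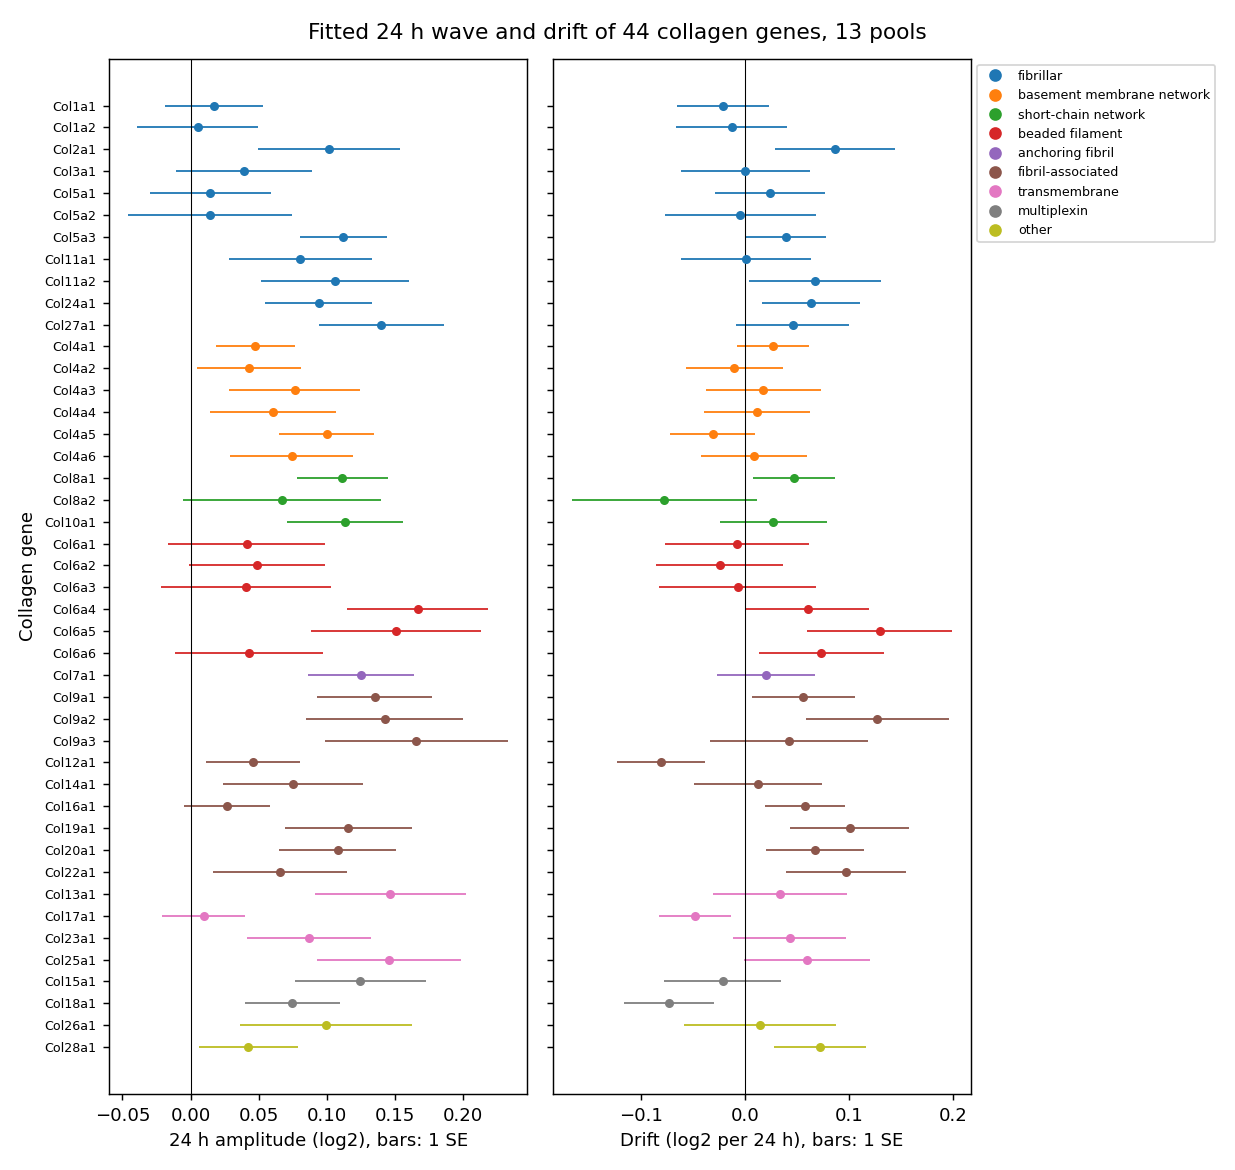
Fitted amplitude of the 24 h wave (left, log2) and linear drift (right, log2 per 24 h) of the 44 collagen genes over 13 pools, with points for the fit and bars for 1 SE, coloured by class. Amplitudes lay between 0.01 and 0.17, and the slopes between -0.08 and 0.13.

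The third question was whether levels drifted over the 48 h of sampling, which the time term of the same fit measured. Of the 44 collagens 0 were called, as were 0 of all 16322 genes tested (0%). At an unadjusted p under 0.05 stood 0 collagens, against 8.8% of all genes. The smallest adjusted p was 0.611, of Col12a1, with a slope of -0.08 ± 0.04 log2 per 24 h (SE, 13 pools). Next came Col6a5 with 0.13 ± 0.07, Col9a2 with 0.13 ± 0.07, Col19a1, a fibril-associated chain, with 0.10 ± 0.06, Col22a1, a chain of tissue junctions, with 0.10 ± 0.06, and Col18a1 with -0.07 ± 0.04. Slopes were above 0 for 31 of the 44 and below it for 13, that is above 0 for 70.5% against 43.5% of all genes. With the muscle mean as a covariate 23 of the 44 were above 0. With 1 pool left out the count ran from 24 without ZT46 to 38 without ZT38. The share of all genes was not computed for these settings. The median slope was 0.03 log2 per 24 h, and the SE of a single gene's slope ran from 0.034 in Col17a1 to 0.089 in Col8a2. The median residual spread around the fit was 0.12 log2.

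The fourth question was whether the chains of a molecule or structure moved together from pool to pool. Over 25 pairs, 20 of chains that share a molecule or a structure and 5 across structures, Pearson's r and Spearman's rho were computed over the 13 pools with a permutation p from 100000 permutations each, two-sided, where 1e-05 is the smallest they can give, and adjusted over the 25. An adjusted p under 0.05 for r was met by 15 of the 20 structural pairs and 2 of the 5 others. The median r was 0.821 for the former and 0.468 for the latter. All 25 pairs were picked by hand, and the share of all gene pairs past this threshold was not computed. Over all 946 pairs of collagens the median r was 0.332 within a class and 0.227 between classes, a narrower gap. Some structural pairs are also neighbours in the genome. After quantile normalization 11 of the 20 structural pairs and 1 of the 5 others met the threshold, with median r of 0.644 and 0.419.

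The fibre chains moved together. Col1a1 and Col1a2 had an r of 0.938 and a rho of 0.956 (permutation p of 1e-05 for each), and r was 0.935 without ZT26 and ZT38, the pools farthest from the median of Col1a1. Col1a1 and Col3a1, chains of different molecules in a shared fibre, had an r of 0.917 and a rho of 0.912 (permutation p 3e-05 and 6e-05), and r was 0.864 without those pools. Col1a2 and Col3a1 had an r of 0.899 and a rho of 0.868 (permutation p 8e-05 and 2.6e-04), and r was 0.855 without ZT6 and ZT38. Col5a1 and Col5a2 had an r of 0.889 and a rho of 0.907 (permutation p 7e-05 and 6e-05), and 0.870 without ZT26 and ZT38. Col1a1 and Col5a1, which together seed a fibre, had an r of 0.837 and a rho of 0.791 (permutation p 5e-04 and 0.00203), and 0.545 after quantile normalization, with an adjusted p of 0.0992 there. Col1a1 and Col14a1 had an r of 0.655 and a rho of 0.720 (permutation p 0.0140 and 0.00702), and 0.531 after quantile normalization, where the adjusted p was 0.101. Col1a1 and Col12a1 did not meet the threshold, with an r of 0.319 and a rho of 0.374 (permutation p 0.289 and 0.211), while without ZT26 the r was 0.654 with an adjusted p of 0.0344.

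The type VI chains were as close. Col6a2 and Col6a3 had an r of 0.938 and a rho of 0.940 (permutation p 1e-05 and 2e-05), and Col6a1 and Col6a2 an r of 0.926 and a rho of 0.901 (permutation p 1e-05 and 7e-05). Without the 2 pools farthest from the median of the first chain these were 0.889 and 0.931. Col1a1 and Col6a1, which lie in different structures of the dermis, had an r of 0.838 and a rho of 0.857 (permutation p 3e-04 and 3.7e-04), and 0.875 without ZT26 and ZT38. Col6a1 and Col6a3 had an r of 0.898 and a rho of 0.923 (permutation p 4e-05 and 3e-05), and 0.854 without ZT2 and ZT30. Col6a5 and Col6a6 had an r of 0.60 and a rho of 0.747 (permutation p 0.0292 and 0.00453), and r was 0.499 after quantile normalization, with an adjusted p of 0.128. The adjusted p of that pair was also above 0.05 when any 1 of ZT2, ZT6, ZT10, ZT18, ZT22, ZT30, ZT38 and ZT42 was left out, at up to 0.0797.

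In the basement membrane, Col4a3 and Col4a4 had an r of 0.90 and a rho of 0.945 (permutation p 1e-05 for each), and 0.934 without ZT30 and ZT34. Col4a1 and Col4a2 had an r of 0.806 and a rho of 0.780 (permutation p 0.00116 and 0.00236). Without ZT38, where both were lowest, r was 0.613 with an adjusted p of 0.0521, and without ZT38 and ZT46 it was 0.596. Col4a1 and Col15a1 had an r of 0.784 and a rho of 0.522 (permutation p 0.00148 and 0.0709). Col1a1 and Col4a1, from fibre and membrane, had an r of 0.666 and a rho of 0.538 (permutation p 0.0120 and 0.0612), and 0.483 without ZT38, with an adjusted p of 0.155. Col4a5 and Col4a6 had an r of 0.581 and a rho of 0.544, with adjusted permutation p of 0.0505 and 0.0956. Without ZT10, ZT14 or ZT26 the r of that pair was 0.668, 0.637 and 0.640, with adjusted p of 0.0283, 0.0418 and 0.0345.

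Among chains known from cartilage fibres, Col9a1 and Col9a2 had an r of 0.886 and a rho of 0.885 (permutation p 9e-05 and 1.9e-04), and 0.907 without ZT30 and ZT42. Col11a1 and Col11a2 had an r of 0.613 and a rho of 0.385 (permutation p 0.0231 and 0.193), and 0.307 without ZT14 and ZT46. Without ZT46 alone r was 0.454 with an adjusted p of 0.167, and when any 1 of ZT2, ZT6, ZT10, ZT18, ZT22, ZT30 and ZT42 was left out the adjusted p was above 0.05 as well, at up to 0.0652.

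The chains at the junction did not meet the threshold with each other or with the fibres. Col7a1 and Col17a1 had an r of 0.083 and a rho of 0.198 (permutation p 0.792 and 0.518). Col1a1 and Col7a1 had an r of 0.019 (permutation p 0.950), Col1a1 and Col17a1 of 0.468 (0.107) and Col3a1 and Col17a1 of 0.253 (0.409). For Col1a1 and Col17a1 r was 0.622 without ZT26 and 0.637 with array medians set equal, with adjusted p of 0.0401 and 0.0298. Nor was the threshold met for Col4a1 and Col18a1, with 0.251 (0.407) and 0.591 with array medians set equal (adjusted p 0.0492), or for Col8a1 and Col8a2, with 0.097 (0.754). With 13 pools an r has wide error, so these values do not show that the genes are unrelated.

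Of the 946 pairs among the 44 genes, 159 had an r above 0.8, or 16.8%, against 1.13% of all pairs of genes tested. After quantile normalization these shares were 7.72% and 0.461%. The median r was 0.332 within a class and 0.227 between classes. Each gene was then set against Col1a1 and against the array median. With Col1a1, 11 of the other 43 genes had an r above 0.6, or 25.6%, namely Col1a2, Col3a1, Col4a1, Col4a2, Col5a1, Col5a2, Col6a1, Col6a2, Col6a3, Col14a1 and Col15a1. The share of all genes tested with such an r to Col1a1 was not computed. With the array median, 23 of the 44 had an r above 0.6, or 52.3%, against 18.8% of all genes tested. No gene was in both sets, and 9 were in neither. Col1a1 itself had an r of -0.127 with the array median, which leaves little room for an r above 0.6 with both. The lack of overlap thus follows largely from the choice of Col1a1, the array median and the threshold. These sets and their threshold were chosen after the values were seen and carry no test.

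**Figure D4:**
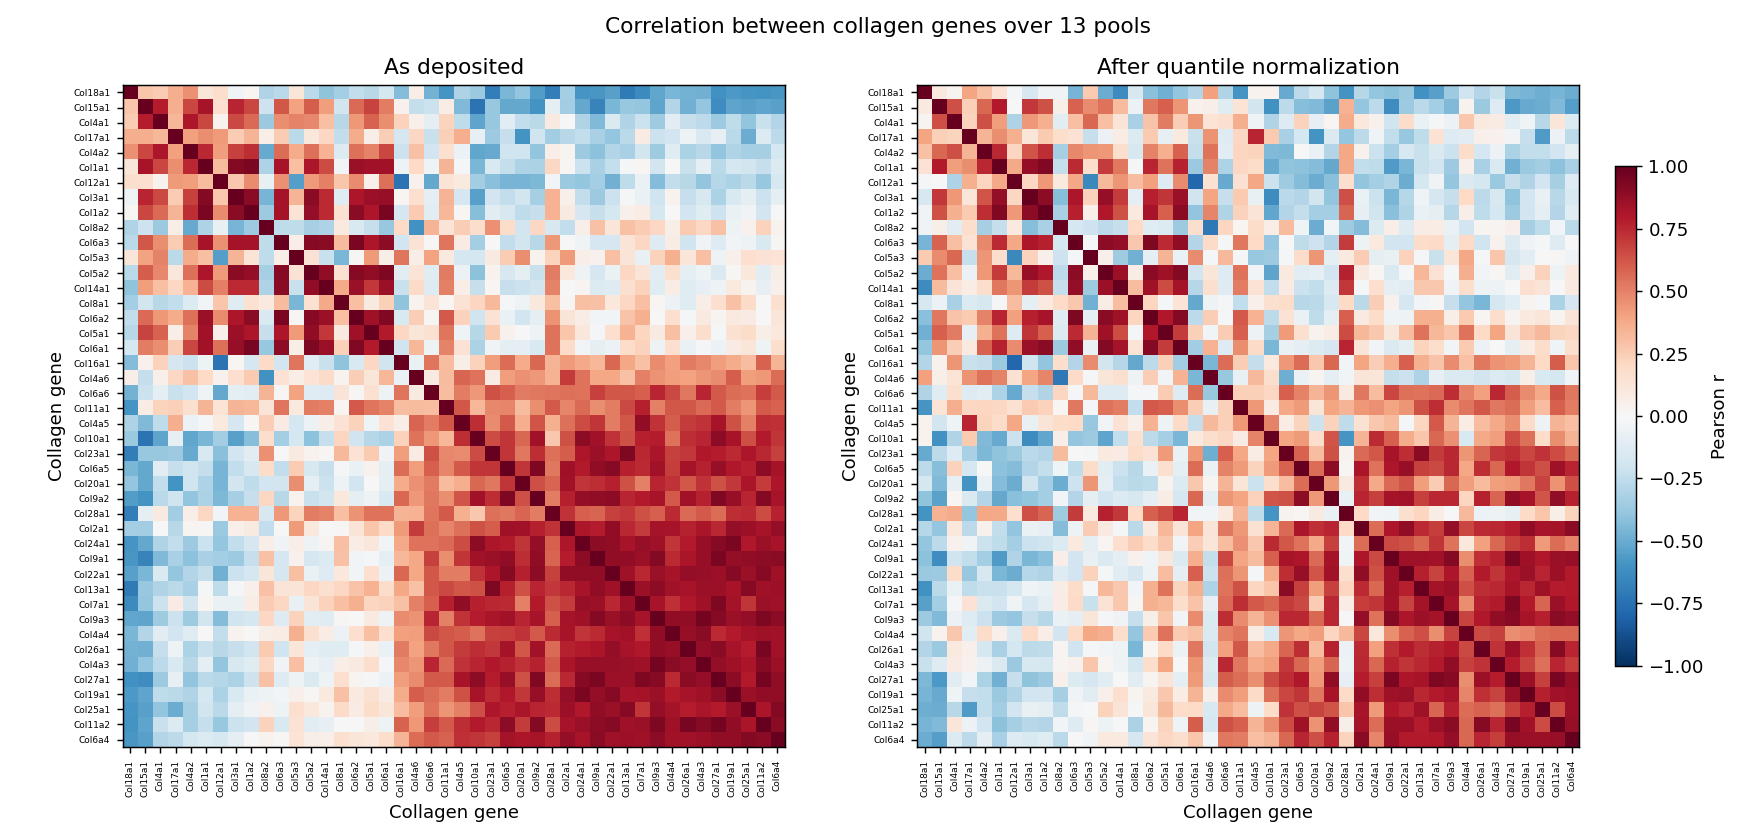
Pearson r over 13 pools between each pair of the 44 collagen genes, as deposited (left) and after quantile normalization (right), with genes in the same order of their r with the array median. Red marks r above 0. A block around Col1a1, with Col1a2, Col3a1, Col5a1, Col5a2, Col6a1, Col6a2 and Col6a3 among others, stands apart from a larger block that holds Col6a4 and Col6a5. In that larger block fewer pairs exceed 0.8 after quantile normalization.

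In the set around Col1a1, ZT38 was the lowest pool for 10 of these 12 genes, Col1a1 included. The highest pools were ZT26 for 4, ZT14 for 3, ZT18 and ZT30 for 2 each and ZT46 for 1. The genes were picked for their likeness to Col1a1, so a shared low at ZT38 follows largely from that choice. The share of all genes lowest at ZT38 was not computed. After quantile normalization 8 of the 11 still had an r above 0.6 with Col1a1. None of the 12 had a mean below the highest array median. Some of its genes are neighbours in the genome. Over the 8 neighbouring pairs of collagen genes r ran from 0.581 in Col4a5 and Col4a6 to 0.926 in Col6a1 and Col6a2, with 0.902 in Col3a1 and Col5a2.

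The set around the array median held Col2a1, the chain of cartilage fibres, and Col11a1 and Col11a2, which sit in the same fibres, with Col9a1, Col9a2, Col9a3 and Col10a1. The others were Col4a3, Col4a4 and Col4a5 of the basement membrane, Col6a4 and Col6a5, Col7a1, the transmembrane chains Col13a1, Col23a1 and Col25a1, the fibrillar chains Col24a1 and Col27a1, and Col19a1, Col20a1, Col22a1, Col26a1 and Col28a1. Among these 23, ZT46 was the highest pool for 14, and ZT30 and ZT34 the lowest for 8 and 7. The array median was itself highest at ZT46, so the count there follows largely from how the set was formed. Of the 23, 14 had a mean below the highest array median, and for 22 the standard deviation over pools was smaller after quantile normalization, when 16 kept an r above 0.6. Col2a1 ran from 967 at ZT22 over a median of 1140 to 1407 at ZT46. Its r with the array median was 0.814 and its rho 0.753 (permutation p 8.5e-04 and 0.00374, adjusted 0.0221 and 0.0486 over 26 relations), and r was 0.678 without the 2 pools farthest from the median. The set was formed by r with the array median, and Col2a1 was picked after the values were seen. These p-values are therefore no independent support for that relation. The mean of types II, IX, X and XI spanned 1.38-fold between ZT30 and ZT46, and 1.31-fold after quantile normalization.

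Beside this stand the markers of cartilage, whose summed intensity ran from 1349 to 1711 over the pools and which were lowest on average at ZT22 and highest at ZT10. Of these 8 markers 3 passed the brightness filter, so their mean rests largely on dim probes. The r of Col2a1 with their mean was 0.563 (permutation p 0.0434, adjusted 0.161) and its rho 0.555 (0.0519), with 0.203 after quantile normalization. With the bone list, of which 4 of 5 measured genes passed the filter, r was 0.635 (permutation p 0.0194, adjusted 0.121) and the rho 0.549 (0.0549), with 0.813 without the 2 farthest pools and 0.351 after quantile normalization. With the smooth muscle and pericyte list r was -0.520 (permutation p 0.0685, adjusted 0.198) and the rho -0.621 (0.0265, adjusted 0.138). With the hepatocyte list, highest at ZT46, the r was 0.552 and the rho 0.170 (permutation p 0.0530 and 0.577), and r was 0.208 without the 2 farthest pools. The part of these lists and of the array median in the levels of the set was not tested.

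**Figure D5:**
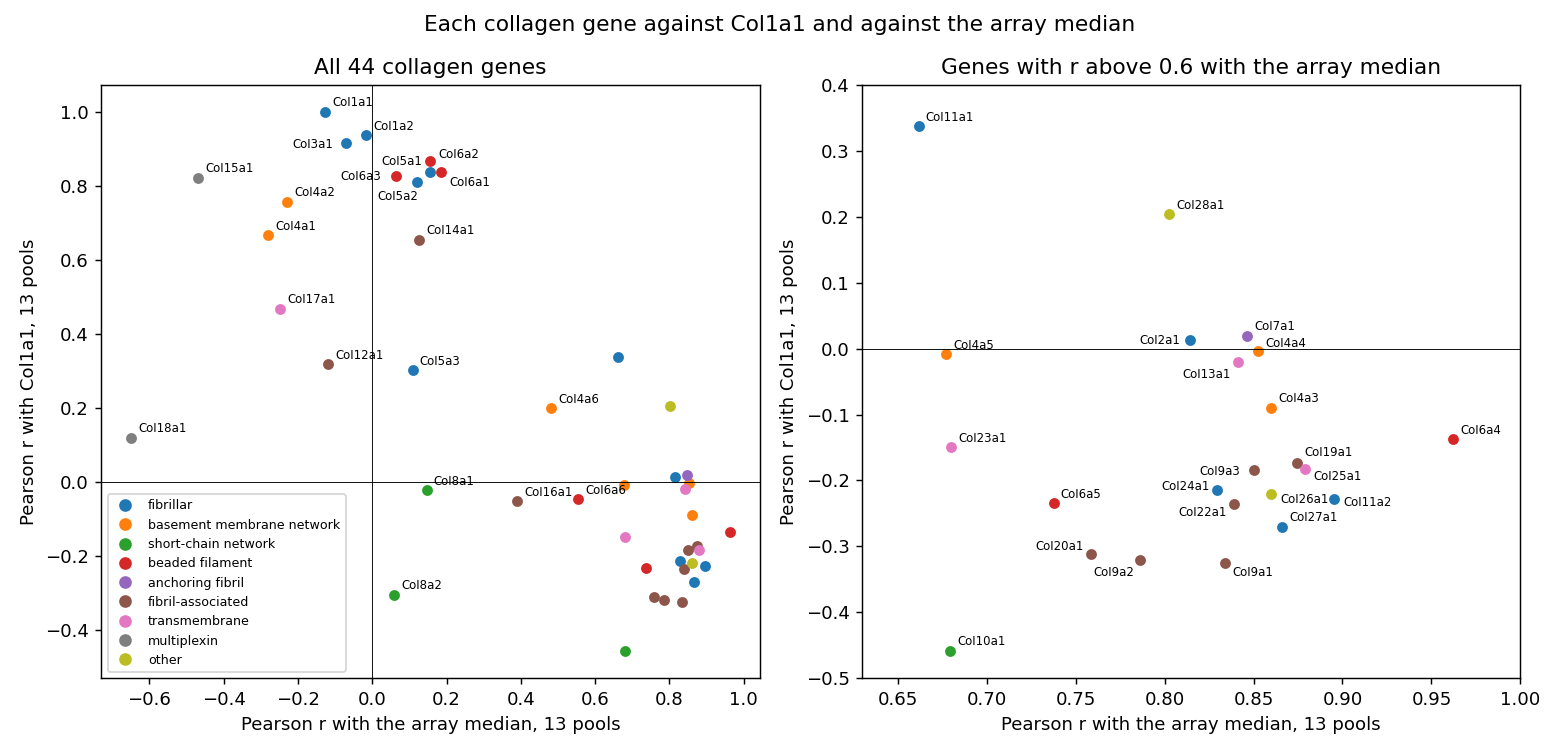
Pearson r of each of the 44 collagen genes with Col1a1 (vertical) against its r with the array median (horizontal), over 13 pools, coloured by class, with all genes on the left and those with an r above 0.6 with the array median on the right. Cut at an r of 0.6, the genes fall in an upper set of 12 with Col1a1 and a lower right set of 23, with 9 in neither set.

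Col1a1 and Col2a1 were each set against 12 marker lists and the array median, which made up the family of 26 relations and was chosen after values were seen. For Col1a1 and the macrophage list, 6 genes that varied 1.42-fold between ZT2 and ZT30, the r was 0.746 and the rho 0.769 (permutation p 0.00344 and 0.00288, adjusted 0.0447 and 0.0486), and r was 0.788 without the 2 farthest pools and 0.660 after quantile normalization. With the dermal fibroblast list it was 0.605 (permutation p 0.0280, adjusted 0.121) and the rho 0.643 (0.0207). With the endothelium list it was 0.623 (permutation p 0.0232, adjusted 0.121) and the rho 0.533 (0.0648). With the smooth muscle and pericyte list it was 0.616 (permutation p 0.0252, adjusted 0.121) and the rho 0.643 (0.0209), with an r of 0.300 without the 2 farthest pools. With the skeletal muscle list it was 0.155 (permutation p 0.612). With the array median it was -0.127 (permutation p 0.677). The part of any of these in the course of Col1a1 was not tested. After the muscle mean was taken out of each chain, the median r of the 20 structural pairs was 0.843.

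Genes that make, fold, process and break down collagen were taken from a list of 60. Of these 56 were measured and 53 tested, and 0 were called for the wave or the drift, against 0.141% and 0% of all genes. At an unadjusted p under 0.05 for the wave stood 2 of the 53, where 9.54% of all genes did. These were Tll1, a protease that trims procollagen, and Itga10, a chain of a collagen receptor, with folds of 1.15 and 1.18. For the drift, where 8.8% of all genes stood at that p, these were Ogn and Plod3. Ogn, a small proteoglycan, had a slope of 0.25 ± 0.08 log2 per 24 h, and Plod3, a lysyl hydroxylase, one of -0.09 ± 0.04. The median fold of the 53 was 1.09. Lox, which cross-links fibres, ran from 1643 at ZT38 to 2964 at ZT26, the same pools as Col3a1, with a fitted fold of 1.29 and an adjusted p of 0.577 in limma. Serpinh1, the chaperone of procollagen, ran from 3434 at ZT18 to 4415 at ZT14.

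Outside the collagens, the genes most like the mean course of Col1a1, Col1a2 and Col3a1 were ranked by Pearson r over the 13 pools. First came Aebp1, a protein of the matrix that binds collagen, with an r of 0.953. It was lowest at ZT42, at 2254, and highest at ZT26, at 3001. Then came Gas7 (0.918), Fkbp9 (0.905), Ptgfrn (0.903), Add3 (0.902), Arhgap11a (0.894), Myo9b (0.889), Antxr1, a receptor that binds collagen (0.888), Mrc2, which takes up collagen into cells (0.885), and Egln2 (0.884). Of the 53 tested genes of the making and breakdown list, the closest after Mrc2 were Mmp2, a gelatinase, at 0.853, and P3h3, a prolyl hydroxylase, at 0.80. Since these were picked for their likeness, they carry no test.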

How the data were processed

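Whole-transcript arrays were run on 13 pools of mouse back skin RNA, 1 array per pool. The deposited series matrix holds linear probe intensities, which the authors made before depositing them. The submitters' processing notes name PLIER 2.0 and Affymetrix Expression Console 1.1.1 without a role. How arrays were scaled to each other and the genome build are not given in the sources used here, so a shift of a whole array cannot be told from one of its genes. Probe symbols came from the platform annotation. Of 35557 probes 21789 had 1 symbol, 1621 several and 12147 none, and 21698 of the first were found in the RefSeq table (GRCm38.p6).

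Values were taken as log2(intensity + 16), so folds of dim probes are understated. Probes with a mean under the 25th percentile were left out, and the brightest probe stood for a gene. A 24 h cosine and sine with linear time was fitted over 13 pools with limma 3.58.1 in R 4.3.3 (eBayes, moderated F and Benjamini-Hochberg over 16322 genes, checked on simulated data). The SE of an amplitude came from the delta method. Pearson and Spearman correlations, with 100000 permutations, two-sided, used Python 3.11.15. Motifs were searched as exact letters in the RefSeq promoter windows.

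Named genes were the chains of types I, III to VII, XII, XIV, XV, XVII and XVIII, the 6 smallest p for wave and drift, the extremes of spread, and the 10 most similar non-collagens. Others were added after their values were seen. The members and lists were chosen with earlier results of these data known. Alternatives were other pseudocounts (1 and 64), filters, quantile normalization, median centring, other models, the muscle mean as a covariate, each pool left out and, added after the data were seen, the second day against the first with the hour of day as a block.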

Additional observations from a re-analysis of the deposited data

Results flagged for a closer look

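Among the 7 light pools, Col4a4 at ZT34 stood below the others, with an intensity of 296, and its gap to the next pool made up 0.584 of the range. Of 64 groups checked (32 genes or class means, in light and dark pools) this was the only one past the critical value, and chance alone marks about 1 in 20 groups. Col4a3, its partner chain, was also lowest at ZT34, at 279.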

How the results depend on the processing

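In each alternative run, 0 collagens were called for the wave or the drift. The smallest adjusted p in limma was 0.280 for the wave (quantile normalization) and 0.325 for the drift (without ZT10). Of all genes or probes tested (11367 to 19938), 9 (times of day as a factor) to 30 (without ZT46) were called for the wave and 0 for the drift. At such shares a count of 0 among the collagens says little. The 8 collagens with an unadjusted wave p under 0.05 became 14 without the time term or with day in its place, 1 with times of day as a factor, 5 after quantile normalization, 4 with median centring and 3 (without ZT30) to 17 (without ZT22) with a pool left out. For the drift the count of 0 became at most 4 (without ZT34). Beside these unadjusted counts the shares of all genes were not computed. The median r of chain pairs was 0.644 after quantile normalization and 0.778 (without ZT38) to 0.890 (without ZT18) with a pool left out, and the cause was not tested. Pairs past the threshold fell from 17 to 12 after quantile normalization. The sign turned in 3 pairs near 0. Col1a1 and Col7a1 (0.019) had -0.190 after quantile normalization, -0.228 with median centring and -0.175 to 0.145 with a pool left out. Col7a1 and Col17a1 (0.083) had -0.204 with median centring and -0.224 to 0.363 with a pool left out. Col8a1 and Col8a2 (0.097) had -0.0753 after the wave was taken out, -0.0430 after the muscle mean and -0.0734 to 0.195 with a pool left out. The range of the mean of all collagens was 0.22 log2, and 0.14 with median centring. Paired by hour, the 12 pools of the first and second day were compared with the hour of day as a block (chosen after seeing the data). Between the days 0 collagens were called, as were 0 of all 16322 genes. The smallest adjusted p of a collagen in limma was 0.976.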
